A study of Mus musculus with 12 samples.

Results

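The 10 genes described here, Gclm, Gsr, Gpx1, Gstm1, Mgst1, Mgst2, Mgst3, Sod1, Sod2 and Nnt, encode enzymes that make, recycle and use glutathione, remove superoxide or supply mitochondrial NADPH. They were followed with all 26 probe sets that carry only their symbol, and are 10 of the 18194 genes that had such a probe set. Expression was measured on 12 Affymetrix arrays of mouse leukemia cells that kept or had lost Rictor, which the kinase complex mTORC2 needs to work. There were 3 arrays in each of 4 groups. These were MLL-AF9 RictorΔ/Δ leukemia and its Control, labelled Rictor wild type, and MLL-NRIP3 RictorΔ/Δ leukemia and its Control, also labelled wild type. All 4 groups carried a fusion of the MLL gene, and all cells were K+G– cells sorted from the marrow of recipient mice after a first transplantation. The labels also name peripheral blood as the host tissue. The sources used here do not state mouse strain or age, the agent that deleted Rictor, or whether a group's arrays stem from separate mice. The p-values below therefore measure only the spread between these arrays.

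Glutathione is a tripeptide thiol whose rate-limiting synthesis step is carried out by glutamate-cysteine ligase. Peroxidases and transferases spend it on peroxides and reactive compounds, glutathione reductase restores it with NADPH, and superoxide dismutases turn superoxide into hydrogen peroxide. In myeloid cells the same chemistry meets the phagocyte NADPH oxidase, which makes superoxide to kill microbes. Many genes of this system are known targets of the transcription factor NRF2, which binds antioxidant response elements.

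The upstream sequences of 3 members are shown because Gclm and Mgst1 hold a match to the core of that element and Mgst2, which had the widest differences of the 10 genes, holds none. They are RefSeq sequences of build GRCm38.p6, the 250 bases before the annotated gene start, read 5′ to 3′ on the strand of the gene. Capitals mark a match to TGACNNNGC on the opposite strand, read here as GCNNNGTCA. The Gclm sequence lies at chr3:122245307-122245556 on the plus strand.
Gclm: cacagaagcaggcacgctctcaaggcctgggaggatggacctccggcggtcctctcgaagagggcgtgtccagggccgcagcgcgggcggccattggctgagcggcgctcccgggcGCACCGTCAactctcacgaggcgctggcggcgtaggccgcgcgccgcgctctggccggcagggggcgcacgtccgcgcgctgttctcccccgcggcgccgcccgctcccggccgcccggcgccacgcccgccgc
The Mgst1 sequence lies at chr6:138140277-138140526 on the plus strand, before the annotated start with a match. The other annotated start of Mgst1 had none.
Mgst1: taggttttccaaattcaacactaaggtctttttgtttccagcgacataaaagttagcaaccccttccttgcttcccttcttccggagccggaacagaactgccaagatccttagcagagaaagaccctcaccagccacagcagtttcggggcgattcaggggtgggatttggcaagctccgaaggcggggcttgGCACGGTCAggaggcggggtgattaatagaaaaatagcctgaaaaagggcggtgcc
The Mgst2 sequence lies at chr3:51660929-51661178 on the plus strand.
Mgst2: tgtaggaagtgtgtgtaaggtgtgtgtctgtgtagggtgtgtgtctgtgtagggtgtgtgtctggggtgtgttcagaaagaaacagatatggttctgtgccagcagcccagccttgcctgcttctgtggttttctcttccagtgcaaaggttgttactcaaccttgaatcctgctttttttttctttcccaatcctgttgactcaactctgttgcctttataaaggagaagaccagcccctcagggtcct
RefSeq windows of 300 bases around the start, 250 before and 50 after it, covered 8 of the 10 genes with 10 windows. Searched on both strands, 3 windows held the motif, those of Gclm, Mgst1 and Sod1, against 12.4% of all 32851 windows. A match describes these letters and is not a site shown to be bound.

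Values are deposited linear intensities, which have no unit. The array medians were 8.16 to 8.36 in MLL-AF9 and 13.6 to 14.2 in MLL-NRIP3 leukemia. The models look separately normalized, so levels are set side by side across them and not tested. Differences are RictorΔ/Δ minus Control on the scale of log2(intensity + 16), with the standard error (SE) of a limma fit to the 6 arrays of each model. Adding 16 narrows the differences of genes with low intensities. The 10 members were chosen by function and by their log2 differences between RictorΔ/Δ and Control in earlier results of these arrays. Their values are therefore a description, and although the fits include them, nothing is concluded from a test of them. A gene stands for its brightest probe set below. All 10 passed the mean intensity of 7.70 required for testing, and did so on every array.

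Some measures of the arrays moved with the groups. In MLL-AF9 leukemia, Xist, whose RNA coats a silenced X chromosome, read 53.6, 208 and 34.3 in RictorΔ/Δ cells, against 2441, 2348 and 2371 in Control cells. Genotype and the sex of the cells cannot be told apart there, whereas all 6 MLL-NRIP3 arrays read between 2509 and 3558. MLL-NRIP3 Control arrays 1 and 2 stood apart from Control array 3. Their ratios of 5′ to 3′ Gapdh signal were 0.562 and 0.738, against 0.952 on Control array 3 and 0.881 to 0.965 on the RictorΔ/Δ arrays. Their mean log2 signal over 18 hybridization control probe sets was 11.2 and 10.6. That mean was 9.48 on Control array 3 and 9.31 to 9.53 on the RictorΔ/Δ arrays. The brightest Rictor probe set read 77.9 to 96.4 in RictorΔ/Δ and 83.7 to 92.4 in Control cells of MLL-AF9 leukemia, and 84.5 to 121 and 87.5 to 139 in MLL-NRIP3 leukemia. The sources used here do not say whether that probe set lies in the deleted part. Kit, which encodes the receptor of stem cell factor, read 137, 157 and 135 in MLL-AF9 RictorΔ/Δ cells, against 232, 160 and 192 in Control cells (log2 difference -0.39 ± 0.11 SE). On the MLL-NRIP3 arrays Kit read 572, 406 and 593 in RictorΔ/Δ cells, against 307, 390 and 326 in Control cells (0.58 ± 0.17 SE). The Kit groups did not overlap in either model, and its differences had opposite signs. Ptprc, which encodes CD45, read 1448 to 2244 over the 12 arrays.

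Set against Control, the largest difference among the 10 genes was that of Mgst2, a microsomal glutathione transferase that also makes leukotriene C4, and it ran in opposite directions in the 2 models. On the scale of the fits, Mgst2 was 6.26-fold higher in MLL-AF9 RictorΔ/Δ cells and 2.72-fold lower in MLL-NRIP3 RictorΔ/Δ cells. That scale narrows differences at low intensities. The ratio of the mean linear intensities of Mgst2, RictorΔ/Δ over Control, was 7.72 in MLL-AF9 and 0.347 in MLL-NRIP3 leukemia. Mgst1, a related membrane enzyme, was higher in the first model and lower in the second, as was Gstm1, a cytosolic transferase. Nnt was lower in RictorΔ/Δ cells of both models, and Gclm was higher in those of MLL-NRIP3 leukemia. Gsr and Sod1 were lower in MLL-AF9 RictorΔ/Δ cells. Gpx1, Mgst3 and Sod2 differed by at most 0.27 on the log2 scale in either model.

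**Figure D1:**
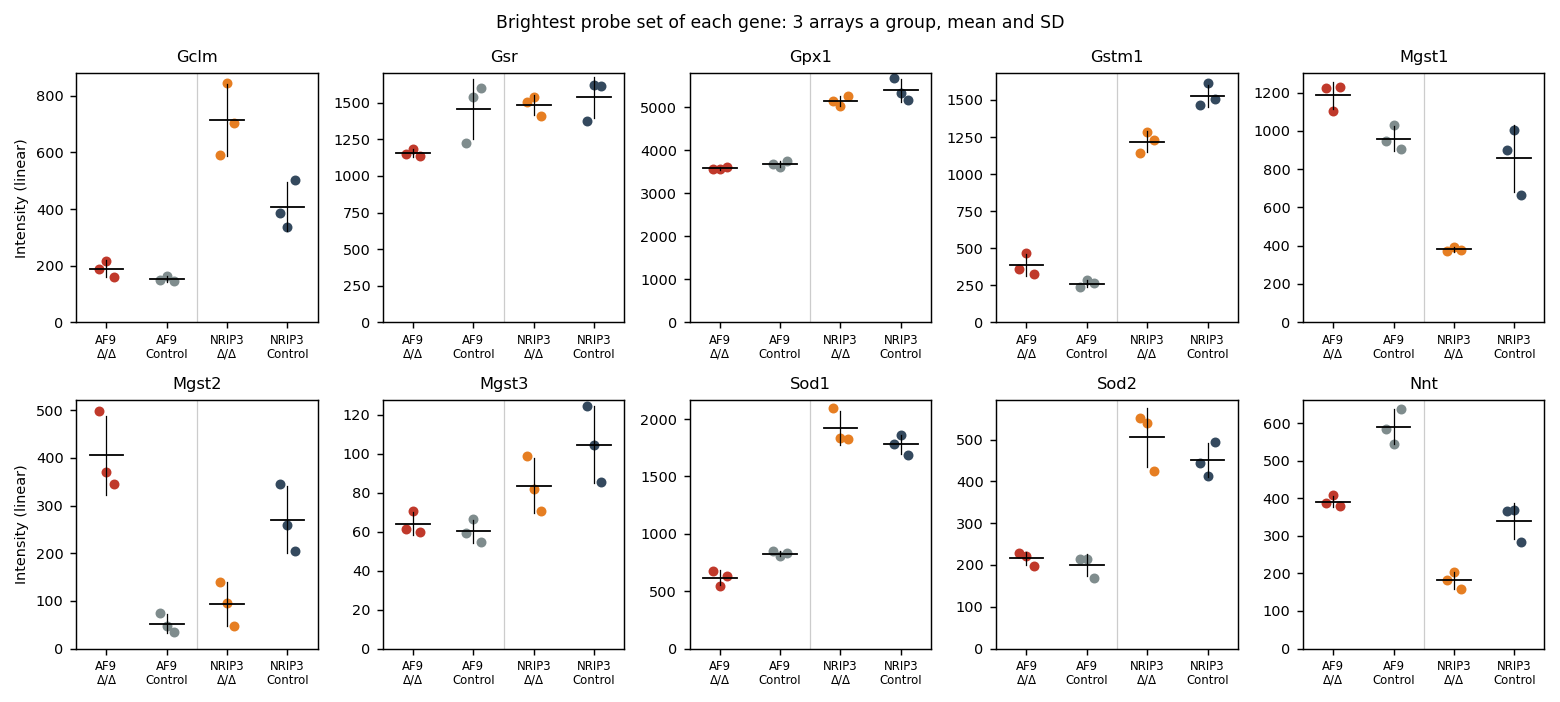
Linear intensity of the brightest probe set of each of the 10 genes on every array (points), with the mean (horizontal line) and SD (vertical line) of each group of 3 arrays. RictorΔ/Δ (Δ/Δ) stands left of its Control in each model. Mgst2 lies between 346 and 499 in MLL-AF9 RictorΔ/Δ cells, above all Controls of that model, and between 47.6 and 139 in MLL-NRIP3 RictorΔ/Δ cells, below all Controls of that model.

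In glutathione synthesis, Gclm encodes the modifier subunit of glutamate-cysteine ligase, which raises the activity of the catalytic subunit. In MLL-NRIP3 leukemia it read 590, 845 and 706 in RictorΔ/Δ cells, against 386, 336 and 504 in Control cells. The groups did not overlap, and the difference was 0.78 ± 0.18 (SE) on the log2 scale. It was 0.47 when only Control array 3 was kept as the Control. In MLL-AF9 leukemia Gclm read 189, 218 and 159 in RictorΔ/Δ cells, against 151, 164 and 145 in Control cells. There the groups overlapped, at a difference of 0.26 ± 0.10 (SE). The dimmer probe set 1439050_at had differences of the same sign, 0.10 ± 0.08 in MLL-AF9 and 0.47 ± 0.23 in MLL-NRIP3 leukemia (SE), with overlapping groups in both.

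Gsr, glutathione reductase, restores glutathione from its oxidised form at the expense of NADPH. In MLL-AF9 leukemia it read 1150, 1186 and 1133 in RictorΔ/Δ cells, against 1227, 1543 and 1604 in Control cells. The RictorΔ/Δ values lay below all Control values, Control array 1 being the nearest, with a difference of -0.32 ± 0.08 (SE). The second probe set, 1421816_at, read 594, 674 and 572 in RictorΔ/Δ cells, against 749, 1006 and 1089 in Control cells, a wider difference of -0.60 ± 0.11 (SE). In MLL-NRIP3 leukemia the groups overlapped at both probe sets, with differences of -0.05 ± 0.10 and 0.01 ± 0.18 (SE).

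Gpx1, a selenium-containing glutathione peroxidase of cytosol and mitochondria, differed little between the groups. It read 3574, 3554 and 3608 in MLL-AF9 RictorΔ/Δ cells, against 3692, 3615 and 3744 in Control cells. The groups did not overlap, yet the difference was only -0.04 ± 0.04 (SE). In MLL-NRIP3 leukemia it read 5155, 5033 and 5269 in RictorΔ/Δ cells, against 5687, 5337 and 5161 in Control cells, with overlapping groups and a difference of -0.07 ± 0.07 (SE).

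Among the transferases, Mgst2 has 1 probe set. In MLL-AF9 leukemia it read 499, 371 and 346 in RictorΔ/Δ cells, against 75.5, 47.3 and 34.7 in Control cells. The lowest RictorΔ/Δ array was several times brighter than the highest Control array, and the difference was 2.65 ± 0.19 (SE). On the MLL-NRIP3 arrays it read 139, 94.9 and 47.6 in RictorΔ/Δ cells, against 346, 260 and 205 in Control cells. All RictorΔ/Δ values lay below all Control values, with a difference of -1.45 ± 0.32 (SE). That difference was -1.10 without Control arrays 1 and 2.

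Mgst1, an abundant membrane transferase of mitochondria and endoplasmic reticulum, differed by less. In MLL-AF9 leukemia it read 1222, 1104 and 1233 in RictorΔ/Δ cells, against 946, 1030 and 903 in Control cells. The groups did not overlap, with a difference of 0.30 ± 0.06 (SE). In MLL-NRIP3 leukemia the RictorΔ/Δ arrays read 370, 395 and 380, against 901, 1004 and 664 on the Control arrays. The 3 RictorΔ/Δ values lay close together and below all Control values, with a difference of -1.11 ± 0.15 (SE), or -0.77 without Control arrays 1 and 2. The other Mgst1 probe set read 6.44 or less on every array and was below the filter.

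Mgst3, the remaining microsomal transferase of the set, read lower than Mgst1 on every array. In MLL-AF9 leukemia it read 61.5, 70.8 and 59.9 in RictorΔ/Δ cells, against 59.3, 66.5 and 54.9 in Control cells, a difference of 0.07 ± 0.09 (SE). It read 98.6, 81.8 and 70.4 in MLL-NRIP3 RictorΔ/Δ cells, against 124, 105 and 85.2 in Control cells, a difference of -0.27 ± 0.18 (SE). The groups overlapped in both models, and without MLL-NRIP3 Control arrays 1 and 2 the difference was -0.03.

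Gstm1 encodes a mu-class cytosolic transferase that joins glutathione to electrophiles. At its brightest probe set it read 361, 468 and 326 in MLL-AF9 RictorΔ/Δ cells, against 236, 285 and 262 in Control cells. The groups did not overlap, with a difference of 0.52 ± 0.11 (SE). MLL-NRIP3 RictorΔ/Δ cells read 1142, 1285 and 1230, against 1469, 1612 and 1503 in Control cells. Here all RictorΔ/Δ values lay below all Control values, with a difference of -0.32 ± 0.09 (SE). All 4 Gstm1 probe sets had a positive difference in MLL-AF9 and a negative one in MLL-NRIP3 leukemia, from 0.14 to 0.52 and from -0.32 to -0.08. Mu-class genes are close in sequence and some of these probe sets are of a type that can bind related transcripts, so the signal may include other family members.

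Sod1 encodes the cytosolic copper-zinc superoxide dismutase. MLL-AF9 RictorΔ/Δ cells read 673, 543 and 637, against 846, 803 and 831 in Control cells. The groups did not overlap, with a difference of -0.42 ± 0.07 (SE). The MLL-NRIP3 values were 2093, 1839 and 1831 in RictorΔ/Δ cells, against 1787, 1862 and 1690 in Control cells, overlapping, with a difference of 0.11 ± 0.09 (SE). The other 3 Sod1 probe sets above the filter had differences from -0.22 to -0.05 in MLL-AF9 leukemia. They disagreed in MLL-NRIP3 leukemia, where the differences ran from -0.18 at 1435304_at to 0.82 ± 0.33 (SE) at 1440222_at. The groups of 1440222_at overlapped, since RictorΔ/Δ array 2 read 160 and the other RictorΔ/Δ arrays 61.8 and 66.7, against 67.3, 34.0 and 33.9 in Control cells.

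Sod2 encodes the manganese superoxide dismutase of the mitochondrial matrix. In MLL-AF9 leukemia its brightest probe set read 228, 222 and 199 in RictorΔ/Δ cells, against 214, 215 and 168 in Control cells, a difference of 0.12 ± 0.09 (SE). The MLL-NRIP3 values were 552, 539 and 425 in RictorΔ/Δ cells, against 445, 413 and 494 in Control cells, a difference of 0.15 ± 0.14 (SE). The groups overlapped in both models. At 1417193_at the groups were apart in MLL-AF9 leukemia, at 0.25 ± 0.08 (SE), and at 1454976_at in MLL-NRIP3 leukemia, at 0.41 ± 0.18 (SE), both higher in RictorΔ/Δ cells.

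Nnt, nicotinamide nucleotide transhydrogenase, sits in the inner mitochondrial membrane and uses the proton gradient to make NADPH, which the mitochondrial glutathione system needs. MLL-AF9 RictorΔ/Δ cells read 387, 408 and 378, against 586, 546 and 639 in Control cells. The groups lay well apart, with a difference of -0.57 ± 0.07 (SE). In MLL-NRIP3 leukemia it read 183, 203 and 158 in RictorΔ/Δ cells, against 365, 370 and 284 in Control cells, again without overlap. The difference was -0.85 ± 0.15 (SE), or -0.61 without Control arrays 1 and 2. The probe set 1456573_x_at was also lower in RictorΔ/Δ cells, by -0.19 ± 0.08 in MLL-AF9 leukemia, where the groups overlapped, and by -0.59 ± 0.14 in MLL-NRIP3 leukemia, where they did not (SE). The remaining probe set, 1432608_at, read 3.57 to 4.35 in MLL-AF9 and 8.84 to 9.27 in MLL-NRIP3 leukemia and was below the filter. The C57BL/6J strain is known to carry a deletion within Nnt, and the strain used here is not known from the labels.

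**Figure D2:**
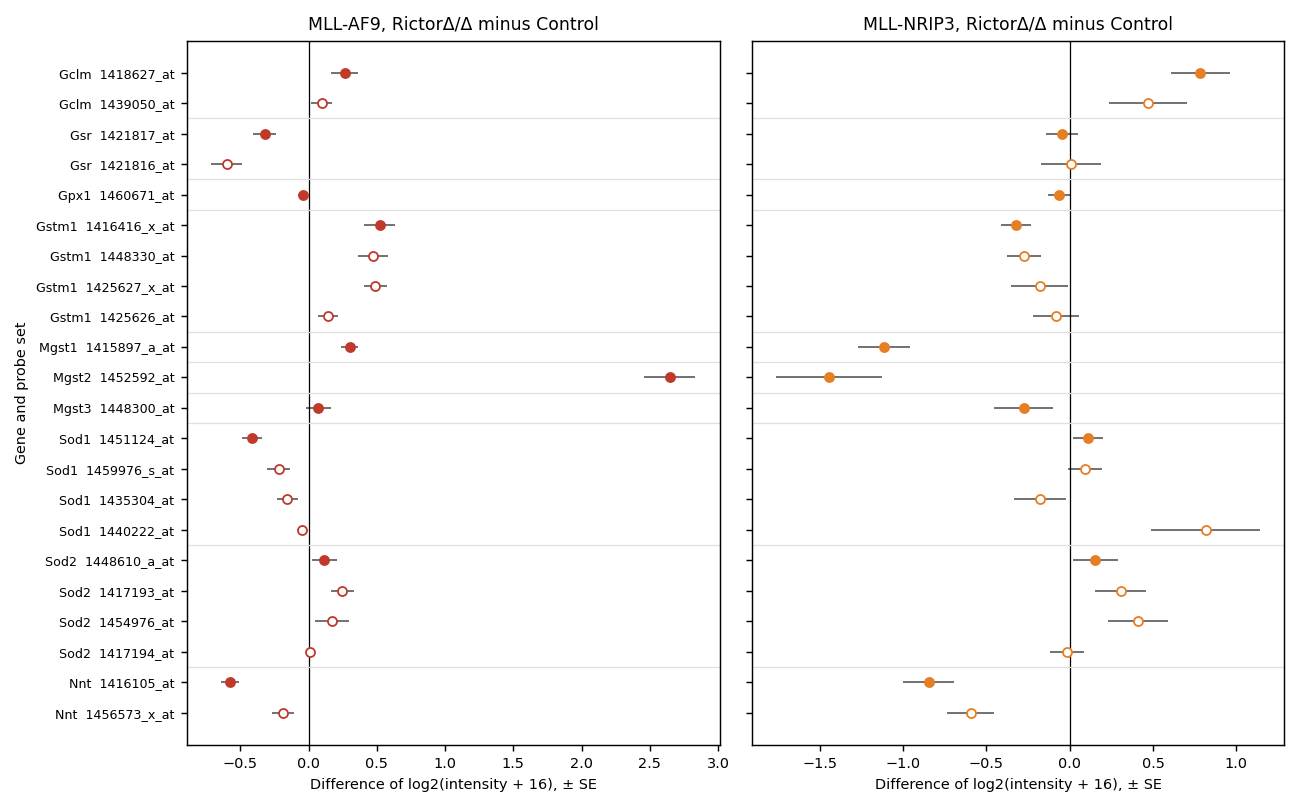
Difference of log2(intensity + 16), RictorΔ/Δ minus Control, with its SE, for the 22 probe sets of the 10 genes that passed the filter, MLL-AF9 at left and MLL-NRIP3 at right. Filled points are the brightest probe set of a gene and open points the others. The 4 Gstm1 probe sets lie right of 0 in MLL-AF9 and left of 0 in MLL-NRIP3 leukemia, and both Nnt probe sets lie left of 0 in each.

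Over the 10 genes, 6 differences were positive and 4 negative in MLL-AF9 leukemia, with a median of 0.09, and 3 were positive and 7 negative in MLL-NRIP3 leukemia, with a median of -0.17. The medians over all 12573 genes tested were -0.01 and 0.00. The 3 RictorΔ/Δ values lay apart from the 3 Control values for 7 genes in MLL-AF9 leukemia, 3 higher and 4 lower, where 27.1% of all genes tested did so (11.4% higher and 15.7% lower). In MLL-NRIP3 leukemia this held for 5 genes, 1 higher and 4 lower, against 22.5% of all genes (9.7% and 12.7%). At a limma adjusted p under 0.05 the fit called 6 members in MLL-AF9 leukemia (Mgst1, Mgst2 and Gstm1 higher, Gsr, Sod1 and Nnt lower), where it called 8.26% of all genes (3.8% higher and 4.46% lower). In MLL-NRIP3 leukemia it called 2 (Mgst1 and Nnt lower), where it called 1.53% (0.779% higher and 0.748% lower). Nothing is read from these counts, since the members were chosen with them in view. The MLL-AF9 count was 3 without Control array 3, 4 without RictorΔ/Δ array 1 and 5 or 6 without another array. The MLL-NRIP3 count was 0 without Control array 1 or 2 or RictorΔ/Δ array 1 or 2, 1 without RictorΔ/Δ array 3 and 4 without Control array 3.

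The members did not share a single pattern over the 12 arrays. After each model's mean was subtracted, Gstm1 and Mgst2 had a Pearson r of 0.77 and Mgst1 and Mgst2 of 0.65, whereas Gclm and Nnt had -0.82 and Gstm1 and Sod1 -0.89. These are descriptions over 12 arrays that share 2 models and 2 genotypes. Outside the set, the genes most like Mgst2 by the same measure were Mapk13 (r = 0.96), Tbrg1 (0.95) and Marcksl1 (0.95). Those most like Mgst1 were Rilpl2 (0.97), Zfp783 (0.96) and Smim6 (0.96).

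The wider redox system was read from 7 lists with 106 further genes, of which 96 had a probe set and 80 passed the filter. In MLL-AF9 leukemia 5 rose and 3 fell, 10% of those tested against 8.26% of all genes, and in MLL-NRIP3 leukemia 1 rose and 1 fell, 2.5% against 1.53% (limma with Benjamini-Hochberg adjustment). The median difference over the 80 genes was 0.00 in MLL-AF9 and -0.02 in MLL-NRIP3 leukemia, close to that of all genes. The filter used the mean over all 12 arrays, so some of the 80 passed only through higher values on the MLL-NRIP3 arrays. Gstm2, Me1 and Nqo1, for example, read below 7.70 on every MLL-AF9 array, and a missing call there says little. With 1 spread shared by all 12 arrays, Gstp1 alone of the 8 MLL-AF9 genes still passed and 13 genes were called in MLL-NRIP3 leukemia.

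**Figure D3:**
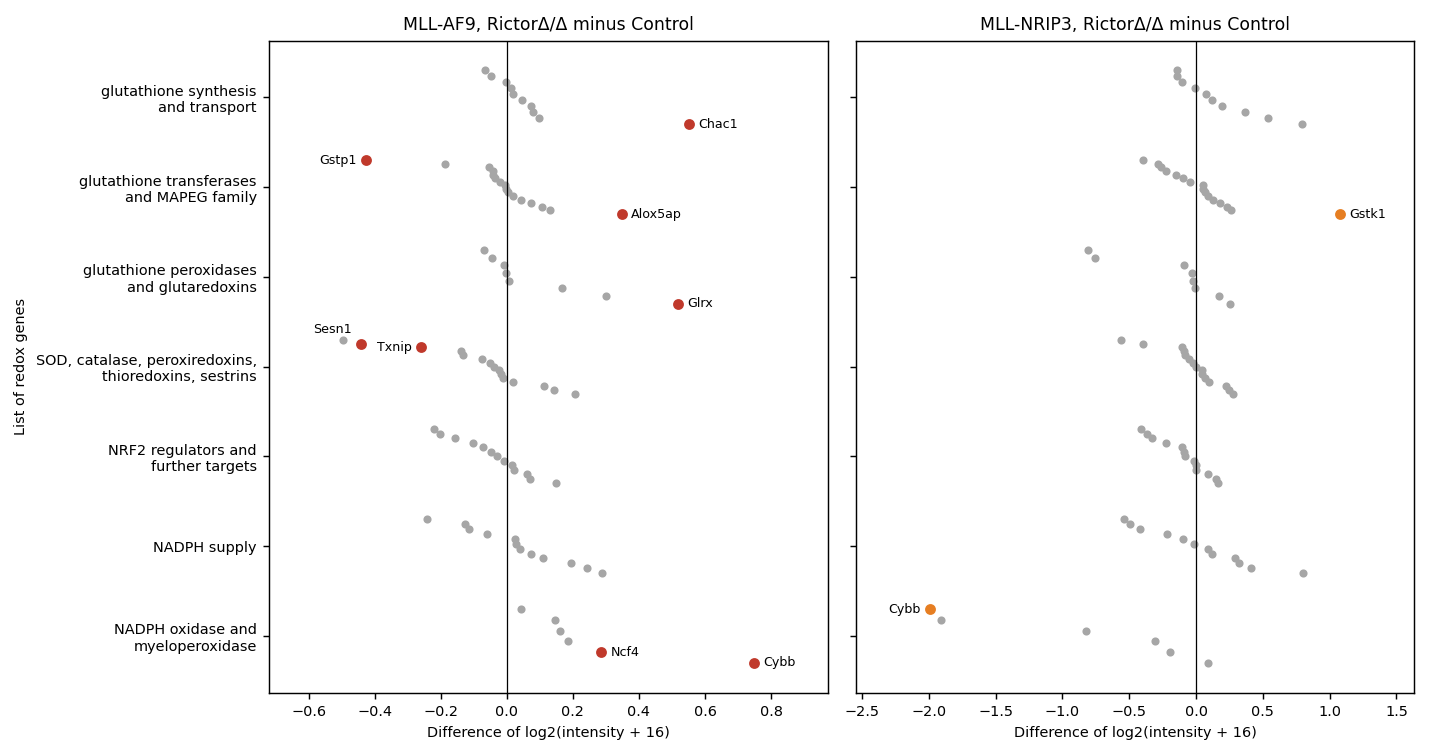
Difference of log2(intensity + 16), RictorΔ/Δ minus Control, for the 80 further redox genes tested, by list, MLL-AF9 at left and MLL-NRIP3 at right (the axes differ in range). Coloured and named points passed an adjusted p under 0.05 in limma, and grey points did not. The 8 named genes of MLL-AF9 leukemia lie within 0.75 of 0, and Cybb lies at -1.99 in MLL-NRIP3 leukemia.

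Among the genes of glutathione synthesis and transport, 1 of 10 tested rose in MLL-AF9 leukemia and none in MLL-NRIP3 leukemia passed, where 2 had an unadjusted p under 0.05. Chac1, which degrades glutathione and is a target of the stress factor ATF4, rose in MLL-AF9 RictorΔ/Δ cells, to 27.9 ± 5.09, against 13.9 ± 2.40 in Control cells (SD, n = 3 each; log2 difference 0.55 ± 0.09 SE, limma adjusted p = 0.0033). In MLL-NRIP3 leukemia its difference was also positive, 0.37 ± 0.19 (SE), with overlapping groups (limma adjusted p = 0.35). Gclc, the catalytic partner of Gclm, had differences of 0.10 ± 0.10 in MLL-AF9 and 0.07 ± 0.14 in MLL-NRIP3 leukemia (SE). By the same limma fit the NRF2 list held no call among 13 genes in either model (2 and 1 at an unadjusted p under 0.05), with differences from -0.22 to 0.15 in MLL-AF9 and from -0.41 to 0.16 in MLL-NRIP3 leukemia. Its classical target Nqo1, a quinone reductase, read 4.73 ± 0.52 in MLL-AF9 RictorΔ/Δ and 4.84 ± 0.77 in Control cells, and 17.8 ± 3.04 in MLL-NRIP3 RictorΔ/Δ and 14.6 ± 3.55 in Control cells (SD, n = 3 each). Nqo1 and Maff of this list read below 7.70 on every MLL-AF9 array, so their missing calls in that model say little. The NADPH supply list also held none among 12 genes (4 and 5 at an unadjusted p under 0.05). Mthfd2, a mitochondrial folate enzyme, had the widest difference in it, 0.80 ± 0.16 (SE) in MLL-NRIP3 leukemia (limma adjusted p = 0.057).

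Of 16 further transferases and MAPEG family genes, Alox5ap rose and Gstp1 fell in MLL-AF9 leukemia, and Gstk1 rose in MLL-NRIP3 leukemia. Alox5ap, the 5-lipoxygenase activating protein, belongs to the same membrane protein family as the Mgst genes. It read 1483, 1440 and 1348 in MLL-AF9 RictorΔ/Δ cells, against 1065, 1199 and 1083 in Control cells (0.35 ± 0.06 SE, limma adjusted p = 0.0040). In MLL-NRIP3 leukemia Alox5ap was also higher without overlap, at 2624, 2719 and 3055 in RictorΔ/Δ cells, against 2240, 2172 and 2596 in Control cells. That difference did not pass (0.26 ± 0.10 SE, limma adjusted p = 0.23). The pi-class Gstp1 fell in MLL-AF9 RictorΔ/Δ cells to 497, 415 and 415, against 613, 613 and 571 in Control cells (-0.43 ± 0.07 SE, limma adjusted p = 0.0044). Its difference in MLL-NRIP3 leukemia was 0.05 ± 0.09 (SE). The mitochondrial and peroxisomal Gstk1 rose to 255, 176 and 230 in MLL-NRIP3 RictorΔ/Δ cells, against 127, 78.6 and 84.1 in Control cells (1.08 ± 0.20 SE, limma adjusted p = 0.045). That call ended without Control array 2 or any 1 RictorΔ/Δ array (adjusted p from 0.079 to 0.16).

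In the dismutase, catalase, peroxiredoxin and thioredoxin list 2 of 15 genes fell in MLL-AF9 leukemia and none in MLL-NRIP3 leukemia passed, where 1 had an unadjusted p under 0.05. The sestrin gene Sesn1, a target of p53 and FOXO factors, fell to 261, 240 and 274 in MLL-AF9 RictorΔ/Δ cells, against 343, 352 and 372 in Control cells (-0.44 ± 0.07 SE, limma adjusted p = 0.0018). Over the mean of its probe sets it was at -0.23 and did not pass. Sesn1 read 154, 147 and 131 in MLL-NRIP3 RictorΔ/Δ cells, against 265, 212 and 187 in Control cells (-0.56 ± 0.16 SE, adjusted p = 0.13). Txnip, the thioredoxin inhibitor, fell by 0.26 ± 0.07 (SE) in MLL-AF9 leukemia (limma adjusted p = 0.040). It no longer passed when Control array 1 or 3 or RictorΔ/Δ array 1 or 2 was left out (0.075 to 0.16), nor over the mean of its probe sets.

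The phagocyte NADPH oxidase and myeloperoxidase list had 6 genes tested, all with a positive difference in MLL-AF9 leukemia and 5 of 6 with a negative one in MLL-NRIP3 leukemia. These signs include small and scattered differences, such as Cyba at 0.04 ± 0.07 (SE) in MLL-AF9 leukemia. Mpo, myeloperoxidase, was at -1.91 ± 1.11 (SE) in MLL-NRIP3 leukemia with overlapping groups. It read 154, 68.7 and 352 in RictorΔ/Δ cells there, against 914, 3198 and 77.4 in Control cells. Cybb, the catalytic subunit that makes superoxide, rose in MLL-AF9 RictorΔ/Δ cells, to 985, 819 and 771, against 368, 633 and 540 in Control cells (0.75 ± 0.16 SE, limma adjusted p = 0.013, or 0.053 without RictorΔ/Δ array 1). It fell in MLL-NRIP3 RictorΔ/Δ cells, to 111, 131 and 104, against 953, 524 and 256 in Control cells (-1.99 ± 0.38 SE, adjusted p = 0.047), and its difference was -1.05 without Control arrays 1 and 2 (adjusted p = 0.029 with a spread shared by the models). The second call ended without any 1 array except Control array 3 (0.081 to 0.15), and Cybb and Gstk1 both lost theirs with quantile normalization, no filter or a pseudocount of 64. Cybb lies on the X chromosome, and in MLL-AF9 leukemia the groups also differed in Xist. Ncf4, a cytosolic oxidase subunit, rose by 0.29 ± 0.07 (SE) in MLL-AF9 leukemia (limma adjusted p = 0.028) and no longer passed when any 1 array except Control array 2 was left out (0.055 to 0.10).

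The difference of the responses, MLL-NRIP3 minus MLL-AF9, was tested over all 12 arrays and passed for 5 of the 80 further genes, 1 positive and 4 negative, which is 6.25% against 4.78% of all genes (2.25% positive and 2.53% negative). On simulated data this fit made false calls more often than its threshold allows, so its calls near the threshold are less sure than an adjusted p under 0.05 implies. The contrast also carries the MLL-AF9 groups, in which genotype and the sex of the cells cannot be told apart. Cybb was at -2.74 ± 0.46, Glrx at -1.28 ± 0.20, Gpx3 at -1.11 ± 0.26, Ncf1 at -0.97 ± 0.22 and Gstk1 at 1.12 ± 0.24 (SE), with limma adjusted p of 0.0032, 0.0022, 0.027, 0.021 and 0.015. Glrx, a glutaredoxin that removes glutathione from proteins, was the only 1 of 8 peroxidases and glutaredoxins to pass within a model. It rose in MLL-AF9 leukemia, to 574, 503 and 483 in RictorΔ/Δ cells, against 376, 367 and 330 in Control cells (0.52 ± 0.07 SE, adjusted p = 0.0014). It read 301, 263 and 210 in MLL-NRIP3 RictorΔ/Δ cells, against 529, 462 and 356 in Control cells (-0.76 ± 0.18 SE, adjusted p = 0.086). Cybb and Glrx kept this call without any 1 of the 12 arrays. Gpx3 lost it without MLL-AF9 Control array 3, MLL-NRIP3 Control array 1 or 2 or RictorΔ/Δ array 1 or 3 (0.051 to 0.11), Ncf1 without MLL-NRIP3 Control array 1 or 2 or RictorΔ/Δ array 1 or 3 (0.052 to 0.085), and Gstk1 without MLL-NRIP3 Control array 2 or RictorΔ/Δ array 1 (0.066 and 0.080). Without MLL-NRIP3 Control arrays 1 and 2, and with a shared spread, Gpx3 was at -0.52 (adjusted p = 0.21) and Ncf1 at -0.51 (0.20), no longer called. In that setting Cybb was at -1.80 (0.0064), Glrx at -0.97 (0.021) and Gstk1 at 1.26 (0.012). Among the members, given as a description without a p-value, the same difference was -4.09 ± 0.46 for Mgst2, -1.41 ± 0.17 for Mgst1 and -0.85 ± 0.23 for Gstm1 (SE). It had the opposite sign for Sod1 (0.52 ± 0.15), Gclm (0.52 ± 0.23) and Gsr (0.27 ± 0.18 SE). The other members lay between -0.35 for Mgst3 and 0.04 for Sod2.

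Markers of mature neutrophils moved in the same directions as Mgst2, Mgst1, Gstm1, Cybb and Glrx. All 10 neutrophil markers tested of a list of 12 rose in MLL-AF9 RictorΔ/Δ cells, with a summed intensity of 28083 to 30629 in RictorΔ/Δ cells and 9064 to 13114 in Control cells. In MLL-NRIP3 leukemia 3 of the 10 fell, and the sum was 1657 to 1974 in RictorΔ/Δ cells and 4878 to 21206 in Control cells. Within groups some of these genes kept the order of the sum and others did not. Among the MLL-NRIP3 Controls the sum was 21206, 9418 and 4878 on arrays 1, 2 and 3. Mgst2 read 346, 260 and 205 there, Cybb 953, 524 and 256, and Glrx 529, 462 and 356, in the same order. Mgst1 read 901, 1004 and 664 and Gstm1 1469, 1612 and 1503, in another order. On the MLL-NRIP3 RictorΔ/Δ arrays the sum was 1730, 1657 and 1974, where Mgst2 read 139, 94.9 and 47.6. Cybb read 111, 131 and 104 on these arrays and Glrx 301, 263 and 210. Among the MLL-AF9 Controls the sum was 13114, 9805 and 9064. Mgst2 read 75.5, 47.3 and 34.7 there and Glrx 376, 367 and 330, in the same order. Cybb read 368, 633 and 540, Mgst1 946, 1030 and 903 and Gstm1 236, 285 and 262, in another order. On the MLL-AF9 RictorΔ/Δ arrays the sum was 30629, 28086 and 28083. Mgst2 read 499, 371 and 346 on them, Cybb 985, 819 and 771 and Glrx 574, 503 and 483, in the same order. Mgst1 read 1222, 1104 and 1233 and Gstm1 361, 468 and 326, in another order. Monocyte and macrophage markers fell in MLL-AF9 leukemia, 8 of 10, with a sum of 2673 to 3056 in RictorΔ/Δ cells and 3696 to 3959 in Control cells, and none of 10 passed in MLL-NRIP3 leukemia, where 4 had an unadjusted p under 0.05 in limma. Mast cell, basophil and eosinophil markers fell in MLL-AF9 leukemia, 3 of 6, with a sum of 570 to 756 in RictorΔ/Δ cells and 1378 to 1471 in Control cells. In MLL-NRIP3 leukemia 1 of 6 rose, with a sum of 784 to 2231 in RictorΔ/Δ cells and 600 to 612 in Control cells. Of 6 B lineage markers 2 fell in MLL-AF9 and 1 in MLL-NRIP3 leukemia, of 3 megakaryocyte markers 1 fell and 1 rose, and of 3 T and NK markers none passed in either. Erythroid markers had 4 of 7 (Alas2, Car1, Hba-a1 and Slc4a1) below the filter and no call among the 3 tested in either model, with no T, NK or erythroid marker at an unadjusted p under 0.05. Fewer cells of a type and less RNA per cell cannot be told apart in such bulk samples, and the part of these cell types in the redox values was not tested.

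**Figure D4:**
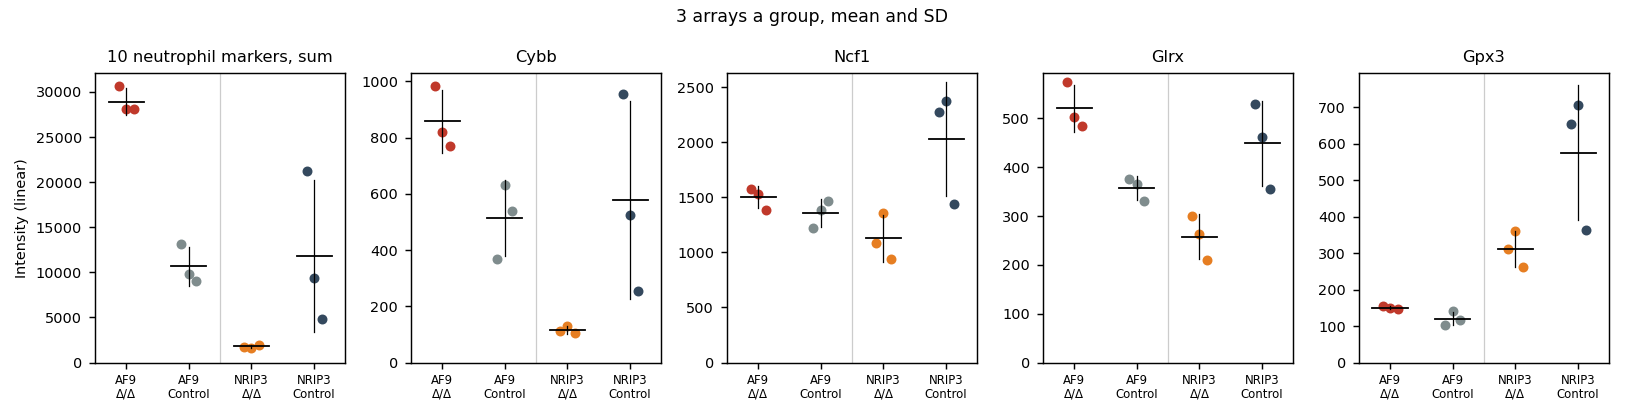
Linear intensity on every array (points), with the mean (horizontal line) and SD (vertical line) of each group of 3 arrays, for the sum of 10 neutrophil markers and for Cybb, Ncf1, Glrx and Gpx3, with RictorΔ/Δ (Δ/Δ) left of its Control in each model. The marker sum lies between 28083 and 30629 in MLL-AF9 RictorΔ/Δ cells, above their Controls, and between 1657 and 1974 in MLL-NRIP3 RictorΔ/Δ cells, below theirs.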

How the data were processed

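Leukemia cells of 4 groups were measured on 12 arrays, with 7 µg of total RNA for each, per the labels' protocols. Groups and replicate numbers were read from titles. The authors deposited 1 linear intensity for each probe set on each array, and the sources used here do not say how it was summarised, background-corrected or normalized. Of 45101 probe sets, 34958 had 1 gene symbol in the platform annotation, 932 several and 9211 none. Symbols were updated through Entrez numbers. Each gene took its brightest single-symbol probe set, and 12573 genes with a mean intensity of at least 7.70, the 40th percentile, were tested.

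Values were used as log2(intensity + 16). Each model's 6 arrays were fitted apart with limma 3.58.1 in R 4.3.3 (lmFit, eBayes with trend, 4 residual degrees of freedom), because the replicate spread differed (median SD per gene 0.06 in RictorΔ/Δ and 0.08 in Control arrays of MLL-AF9, 0.14 and 0.15 in MLL-NRIP3). Values at probe sets other than the brightest come from the same fit over all single-symbol probe sets. The difference of responses was fitted over all 12 arrays with a weight per model. Tests were 2-sided, with Benjamini-Hochberg adjustment over all genes tested and a threshold of 0.05. The fits were tested on simulated data, where the share of false calls exceeded the threshold in the difference of responses. The number of arrays limits the precision.

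The members and all lists were chosen with earlier results of these data known. All 10 members are named, and of each list up to 3 called genes per contrast and direction with the smallest p; Gclc, Nqo1 and Mthfd2 were chosen after their values were seen. The genes most alike are the 3 with the highest Pearson r, for members with a difference of at least 1 and no overlap. Alternatives covered normalization, filter, pseudocount, probe sets, shared spread, moderation, array weights, a replicate block and leaving out arrays. Python 3.11.15 with pandas 2.3.3 wrote the tables and matplotlib 3.10.9 drew the figures.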

Additional observations from a re-analysis of the deposited data

Results flagged for a closer look

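Genes are listed here because their response to Rictor deletion differed between the models. Among the further redox genes the difference, MLL-NRIP3 minus MLL-AF9 on the log2 scale, passed the test at -2.74 for Cybb, -1.28 for Glrx, -1.11 for Gpx3, -0.97 for Ncf1 and 1.12 for Gstk1. Without MLL-NRIP3 Control arrays 1 and 2, Gpx3 was at -0.52 and Ncf1 at -0.51, and Cybb was at -1.80, Glrx at -0.97 and Gstk1 at 1.26. Among the members, all 3 RictorΔ/Δ values lay above all Controls in MLL-AF9 and below them in MLL-NRIP3 leukemia for Mgst2 (-4.09), Mgst1 (-1.41) and Gstm1 (-0.85). No test of the difference is given for these members, since they were chosen with these values in view.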

How the results depend on the processing

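Counts moved more than single values did. In MLL-AF9 leukemia, 1039 genes were called (176 with a spread shared by all 12 arrays), 8 of them further redox genes (1 with the shared spread). Without 1 array these counts ranged from 582 to 963 and from 5 to 9. In MLL-NRIP3 leukemia 192 genes were called, against 1734 with the shared spread, 3009 with array weights, 99 with all probe sets of a gene averaged and 738 without Control arrays 1 and 2, where the lone Control array is assumed to vary like the other groups. The 2 redox calls became 0 with quantile normalization, no filter, a pseudocount of 64 or eBayes without trend, 1 with median centring or the mean of probe sets, 13 with the shared spread, 27 with array weights and 4 without Control arrays 1 and 2. Without 1 array these counts ranged from 30 to 862 and from 0 to 11. For the difference of responses, 601 genes were called (2529 with array weights), 5 of them redox genes (8 with the mean of probe sets, 22 with array weights, 3 without Control arrays 1 and 2), with ranges of 289 to 1113 and 2 to 9 without 1 array. The array-weight counts split as 1657 higher and 1352 lower in MLL-NRIP3 leukemia. The cause of these moves was not tested.

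With the replicate number as a block (replicate block), 960, 163 and 520 genes were called in the 3 comparisons, and 10, 4 and 6 further redox genes. The main fits did not pair the arrays by number. Same-numbered arrays correlated in their deviations from the group means at -0.14 to 0.06, and 2 of 12 arrays correlated best with their own number. With 3 arrays a group, these values cannot settle whether the numbers mark pairs. In the contrast that called it, no member or further redox gene changed sign under the settings computed gene by gene, which do not include the fit of each probe set on its own. Without leaving out single arrays, and counting the setting without MLL-NRIP3 Control arrays 1 and 2, 216 alternative values of the members moved by less than the replicate SD and 14 by more, and with 1 array left out all 120 moved by less. Averaged over all probe sets of a gene, dim ones included, Mgst1 was at 0.15, Sod1 at -0.17 and Nnt at -0.25 in MLL-AF9 leukemia, and Mgst1 at -0.56 and Nnt at -0.48 in MLL-NRIP3 leukemia. The size of the Mgst2 difference in MLL-AF9 leukemia depended on the pseudocount, at 2.98 with a pseudocount of 1 and 2.01 with 64.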
